A study of Homo sapiens with 12 samples.

Results

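Splice junctions that span 100 kb or more join exons lying far apart on the chromosome, and 423 of the 170723 junctions in the deposited table formed this class. A junction was taken when it had a strand, when the distance from the last base of the upstream exon to the first base of the downstream exon was at least 100000 bases, and when its reads summed over the 6 columns of the table reached 20. The junctions were thus selected on span and on reads pooled over wild-type and mutant U1, and spans and read totals are given only as a description. Junctions of this length without the read minimum numbered 1251, and 91195 junctions of any length had a strand and at least 20 reads.

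The study measured RNA from the cell lines JVM3, HG3 and MEC1, which the labels give as chronic lymphocytic leukemia lines, each with wild-type U1 or with U1 carrying the g.3A>C change. Every line and U1 status had 2 technical replicates, 12 libraries of ribosome-depleted, strand-specific total RNA in all. The junction table has 1 column for each line and status, with no replicate in its name, so each line contributed 1 wild-type and 1 mutant value and n was 3 lines. How mutant U1 was brought into the lines, and whether a line is 1 clone, is not given in the labels. P-values therefore measure the spread between the 3 lines and carry no separate cultures of a line.

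U1 is the small nuclear RNA that recognises the 5′ splice site (the donor) by pairing its 5′ end with the last bases of the exon and the first bases of the intron. Very long introns are frequent as first introns of genes, hold many sequences that resemble splice sites, and take a long time to transcribe. U1 is also known to protect transcripts of long genes from premature cleavage and polyadenylation inside introns. The 3′ splice site (the acceptor) ends the intron, and several donors can compete for the same acceptor.

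The stretches below show the spliced RNA at annotated long junctions on which the results turn, with 15 exon bases on each side. Capitals mark the last 3 bases of the upstream exon, the exonic part of the site that pairs with U1. Sequences are from the GENCODE 29 transcripts and coordinates are those of the junction table (hg19). Intron bases were not used here.
MSI2 intron 5 (chr17:55339553-55478740, plus strand): cgagcgcaacccAAGatggtcacaagaaca
ZNF609 intron 1 (chr15:64792365-64915026, plus strand): gtcaagtctgaaAAGatggagtcccctgtt
ST7 intron 1 (chr7:116593745-116739816, plus strand): acaacttgagcaCAGtgagcatgtttttga
ST7 short competitor (chr7:116738869-116739816, plus strand): cccacaaaaagcCCAtgagcatgtttttga
MYO1E intron 1 (chr15:59564648-59664697, minus strand): gcgcgagtcaccATGggaagcaaaggtgtc
PBX3 intron 2 (chr9:128510902-128691934, plus strand): tcaaagagaaaaCAGgcatgtaatgaattt
EBF1 intron 6 (chr5:158267118-158500404, minus strand): agtgataattgaCAGgttcttcttgaaatt
VTI1A intron 7 (chr10:114428757-114575049, plus strand): agggatgttgcgAAGaatcatccagaaccg
NT5DC1 intron 6 (chr6:116439108-116542217, plus strand): tgtcagcttttaAGGaaaactgtggaatat
DOCK2 intron 27 (chr5:169267856-169410072, plus strand): gatcacattctgATTagtcactttgtggca
The pair from ST7 shares the downstream exon and differs in the exon that is joined to it. Of the 286 long junctions that match an annotated intron, 230 (80.4%) followed an exon ending in G and 152 (53.1%) one ending in AG. Among the 18 annotated ones whose reads fell with mutant U1, 10 (55.6%) followed an exon ending in AG.

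Long junctions were often the first intron of a large gene. Spans ran from 100049 to 489763 bases with a median of 125465, 295 junctions were under 150 kb and 17 reached 300 kb. Reads per junction ran from 20 to 8039 with a median of 128, and 341 of the 423 had reads in every column. A gene could be named for 372, in 241 host gene labels, and 51 stayed without one. Of the 286 annotated ones, 125 were the first and 49 the second intron of their transcript; 192 lay within coding sequence, 66 in the 5′ UTR and 3 in the 3′ UTR. A further 99 joined sites that the annotation does not list as 1 intron, and 38 matched nothing. TBC1D5, a GTPase-activating protein of endosomal transport, had the most, with 8 long junctions of 37 to 549 reads, none of which was called in read level (edgeR adjusted p from 0.42 to 0.975). The most read coding ones were MBNL1 (4014 reads), a splicing regulator, PIP4K2A (3132), a lipid kinase, and DOCK2 (3033), which activates Rac in migrating lymphocytes. The longest annotated one was intron 5 of SMYD3, a lysine methyltransferase, at 397264 bases and 316 reads. Of the longer ones outside the annotation, an unnamed junction on chromosome 1 (489763 bases) had 103 reads and one in IMMP2L (453694 bases) had 20, with 9 in each MEC1 column. In wild-type columns the median use of a long junction, its share of all reads at its acceptor, was 82.7% over the 388 junctions with reads there, above 90% in 174 and below 10% in 71.

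The class I region of the MHC on chromosome 6 held 14 long junctions with 16280 reads, 11.1% of the reads of the class. The named ones began or ended in HLA genes, for example a 112887-base junction at HLA-B with 8039 reads and a 483544-base junction joining HLA-J and HLA-E with 1402. These genes are near-identical paralogs, whose reads can be placed wrongly by an aligner, so these junctions are uncertain. None of the 14 was called in read level or use. At the limits of the rule, MYO1E (100049 bases) and FOXN3 (100144) were the shortest inside and an unnamed junction on chromosome 6 (99745) and ENSG00000237356 (99976) the longest outside. TSHZ2 and UTRN had 20 reads, and the unnamed junctions just outside, on chromosomes 2 and 6, had 19.

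Columns of the junction table held 15537369 to 17917160 reads, and the libraries held 29880079 to 39716818 gene counts. The B-cell markers MS4A1 (708 to 1291 CPM, counts scaled by the library total and its TMM factor), CD79A (158 to 184), PAX5 (166 to 277) and CD74 (1325 to 3184) were read in every line and status. CD5 was 39.6 and 42.5 CPM in HG3 and at most 0.468 in JVM3 and MEC1. Markers of T cells, myeloid cells, erythroid cells and platelets, and stroma summed to at most 15 CPM each in any line.

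With mutant U1, long junctions took a smaller share of all junction reads in each of the 3 lines. The share fell from 0.161% to 0.146% in JVM3, from 0.149% to 0.135% in HG3 and from 0.164% to 0.153% in MEC1. The mutant values lay below the wild-type value of their own line each time, while the groups overlapped across lines. The mean went from 0.158% ± 0.00809 to 0.145% ± 0.00948 (SD, n = 3 lines), a difference of -0.013 percentage points ± 0.00187 (SD). An exact two-sided permutation within lines gave p = 0.25, the smallest value that 3 lines allow. Junctions of 200 kb or more showed the same order, from 0.0169% ± 0.00439 to 0.0147% ± 0.00393, lower in all lines. With the MHC junctions left out the difference for 100 kb or more was -0.0113 points. In bulk RNA, fewer transcripts of long genes and less splicing across their introns cannot be told apart from this share.

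**Figure D1:**
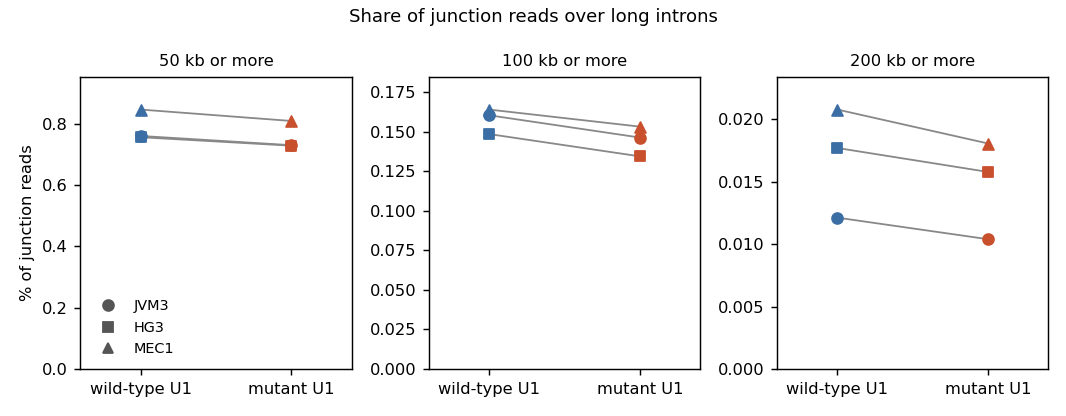
Percent of junction reads (y axis, from 0) that fell on junctions of at least 50, 100 and 200 kb, with wild-type and mutant U1, 1 point per line and status and a line joining the 2 columns of a cell line. All 9 lines slope down, for 100 kb from 0.161% to 0.146% in JVM3, 0.149% to 0.135% in HG3 and 0.164% to 0.153% in MEC1.

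Read level was then compared junction by junction, as the log2 ratio of mutant to wild type within lines (edgeR quasi-likelihood test over all 91195 junctions). It fell for 26 long junctions and rose for 8, 8.04% of the 423, against 6.49% called among all junctions tested. For lower levels the shares were 6.15% of long junctions against 3.38% of all, and for higher levels 1.89% against 3.1%. The median log2 change was -0.10 over long junctions and -0.01 over all, and by span it went from 0.02 below 1 kb to -0.05 between 50 and 100 kb. Taken line by line, the long junctions had a median of -0.10 (JVM3), -0.06 (HG3) and -0.09 (MEC1). Without the MHC junctions it was -0.10. Levels were lower in every line for 116 long junctions (27.4%, against 20.4% of all) and higher in every line for 53 (12.5% against 19.8%). Annotated introns made up 18 of the 26 lower calls (69.2%) and 1 of the 8 higher calls, beside 67.6% of the class. Of the 8 higher junctions, 6 had fewer than 20 wild-type reads in all and met the read minimum through the mutant columns, so that their number and their tests were shaped by that minimum: those of MSI2, ZNF609, EBF1, RSRC1, ZBTB20 and chromosome 8. Of the lower ones, 3 met it through the wild-type columns, those of SLC12A2-DT, chromosome 16 and chromosome 2, and their tests were shaped likewise. Calls at single junctions depend on the tool: DESeq2 called 6 of 368 long junctions, 2 higher and 4 lower, against 1.98% of all junctions. Without HG3, JVM3 or MEC1 the calls were 12 of 376, 21 of 370 and 22 of 366, against 3.97%, 5.95% and 5.5% of all. Of these runs, only the one without MEC1 had a share of calls above that of all junctions. Lower calls were 4 of 368, 8 of 376, 13 of 370 and 15 of 366 in the same order. The shares of all junctions were 0.98%, 1.99%, 2.99% and 2.84%. With DESeq2 and without HG3 the share of lower calls was thus near that of all junctions, and without JVM3 or MEC1 it was above.

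**Figure D2:**
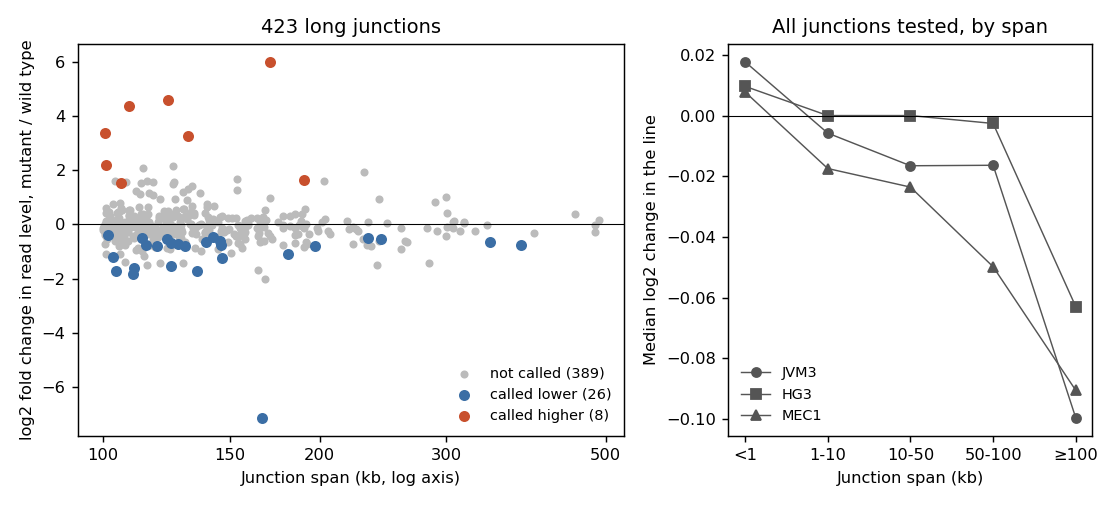
Left, fitted log2 change in read level (y axis) against span (x axis, log scale) for the 423 long junctions, with the 8 called higher and 26 called lower in colour; fitted values above 5 in size belong to junctions with no reads in several columns and are no estimate of a fold. Right, median log2 change in each line by span class over all 91195 junctions tested, with the lowest medians at 100 kb or more in all 3 lines.

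MSI2, an RNA-binding protein of the Musashi family, gained an exon inside a long intron. Its annotated junction over intron 5, 139187 bases long, had 237, 275 and 185 reads in wild-type JVM3, HG3 and MEC1 and 187, 159 and 129 in the mutant columns. A 43-base exon inside that intron, at chr17:55448310-55448352 and not in the annotation, had upstream junction reads of 2, 5 and 4 in wild type and 76, 123 and 51 in the mutant. Its downstream junction had 1, 3 and 3 against 75, 117 and 63. The exon was close to absent in every wild-type column and was read often in all mutant columns. Inclusion went from 1.31% ± 0.624 to 34.1% ± 7.74 (SD, n = 3), and its length is not a multiple of 3. At the shared acceptor the use of the long junction dropped by 33.6 percentage points (edgeR diffSpliceDGE adjusted p = 0.0118) and that of the exon's downstream junction rose by the same amount (edgeR adjusted p = 1.61e-09). The upstream junction, itself 108757 bases long, rose by 4.37 ± 0.39 on the log2 scale (SE over lines, edgeR adjusted p = 2.68e-08). The skipping junction fell by 0.66 ± 0.06 (edgeR adjusted p = 0.00209). Both junctions of the new exon met the read minimum through the mutant columns, so their tests were shaped by that minimum. Without JVM3 or without HG3 the skipping junction missed the threshold for use (edgeR adjusted p = 0.0571 and 0.231) with a drop of 36.3 and 29.7 points. MSI2 gene counts were 110 ± 32.1 CPM in wild type and 101 ± 39.0 in the mutant (edgeR adjusted p = 0.447).

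ZNF609, a zinc finger protein, changed its donor for a 122661-base first intron. The annotated donor at chr15:64792365 had 81, 147 and 149 reads in wild-type JVM3, HG3 and MEC1 and 71, 88 and 118 with mutant U1. A donor 579 bases upstream, at 64791786 and not in the annotation, had 0, 2 and 2 reads in wild type and 15, 49 and 45 in the mutant. Both junctions end at the same acceptor, and the upstream donor took 17.4%, 35.8% and 27.6% of its reads in the mutant columns. In wild type it took 0 of 81 reads in JVM3, which allows a share of up to 3.7%, 1.34% in HG3 (Wilson 95% interval 0.369 to 4.76) and 1.32% in MEC1 (0.364 to 4.7). The ranges did not overlap, and use rose by 26.1 points ± 8.49 (SD, n = 3, edgeR adjusted p = 6.59e-07). The upstream donor's junction had 4 wild-type and 109 mutant reads. It met the read minimum through the mutant columns, so its test was shaped by that minimum. Level of the annotated junction was -0.54 ± 0.09 on the log2 scale (edgeR adjusted p = 0.041), a call lost when any 1 of the lines was left out (edgeR adjusted p from 0.0727 to 0.279). Counts of the gene were 121 ± 32.0 and 104 ± 19.5 CPM (edgeR adjusted p = 0.218).

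ST7, named for suppression of tumorigenicity, moved between a pair of upstream exons that the annotation places in different transcripts. The 146071-base junction from the distal exon had 53, 65 and 82 reads in wild-type JVM3, HG3 and MEC1 and 26, 40 and 63 in the mutant. The competing annotated junction from an exon only 947 bases upstream of the acceptor had 22, 18 and 13 against 45, 125 and 62. Use of the long junction was 70.7%, 78.3% and 86.3% in wild type and 36.6%, 24.2% and 50.4% in the mutant. The mutant values all lay below the wild-type values, with a mean drop of 41.3 points ± 11.1 (SD, n = 3, edgeR diffSpliceDGE adjusted p = 0.0115). The competitor's gain was called as well (edgeR adjusted p = 0.00135). The drop missed the threshold without HG3 (edgeR adjusted p = 0.249, 35 points), without MEC1 (0.0581, 44.1 points) and in a limma test of log odds (adjusted p = 0.079). Gene counts, which sum all isoforms, were 42.9 ± 11.4 and 49.5 ± 12.6 CPM (edgeR adjusted p = 0.177).

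ZBTB20, a transcriptional repressor of the BTB zinc finger family, was expressed at low level (7.72 ± 2.74 CPM in wild type). A 170397-base junction outside the annotation had 0 reads in all wild-type columns and 7, 14 and 3 in the mutant columns of JVM3, HG3 and MEC1. It was the 1 long junction with reads in mutant columns only, so it entered the class through them and a gain was fixed by that choice; its counts are a description. Reads at its acceptor numbered 16, 15 and 3 in wild type and 11, 15 and 8 in the mutant, and the junction made up 63.6%, 93.3% and 37.5% of the latter. Absence in wild type allows shares of up to 18.8% in JVM3 and 20% in HG3, and MEC1 with 3 reads sets no limit.

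Over the class as a whole, use at the acceptor could be tested for the 223 long junctions with a competitor of at least 20 reads. Use rose for 2 and fell for 2, 1.79% of them, against 2.78% called among all 35857 junctions tested with edgeR (2.0% more and 0.784% less). The limma diffSplice test called 2 more and 6 less, 3.59% against 6.16% of all (3.16% more and 3.01% less). It added the loss of the annotated long junctions of ZNF609, MYO1E, PBX3 and LINC01278. At an unadjusted p under 0.05 edgeR had 20 of 223 (8.97%), against 10.9% of all junctions tested. Both junctions used more, those of ZNF609 and ZBTB20, had met the read minimum through mutant columns. At least 1 junction was called at 9 of the 166 testable acceptors of the class (5.42%), close to the 5.36% over all acceptors, and at 9 of 178 donors (5.06%) against 3.48%.

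**Figure D3:**
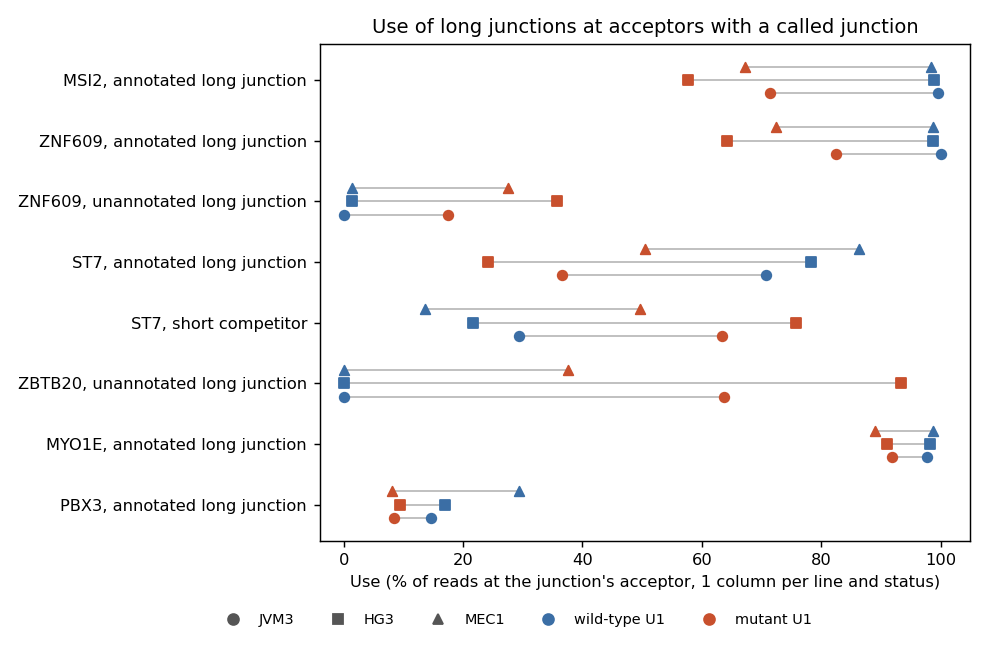
Use, the percent of reads at the acceptor (x axis), of long junctions of MSI2, ZNF609, ST7, ZBTB20, MYO1E and PBX3, and of the short competitor in ST7, with 1 point per line (shape) and U1 status (colour). The annotated junction of MSI2 moved from 98.4 to 99.6% down to 57.6 to 71.4%, and that of MYO1E from 97.7 to 98.7% down to 89.1 to 91.9%.

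The genes named from here to the end of this paragraph were chosen after their values were seen. MYO1E, a single-headed class I myosin, gained an unannotated 111-base exon within its 100049-base first intron. Reads joining it downstream were 10, 9 and 2 in wild-type JVM3, HG3 and MEC1 and 40, 36 and 24 in the mutant, beside 434, 504 and 155 against 454, 366 and 196 that skipped it. Inclusion was 1.58% ± 0.276 and 9.33% ± 1.36 (SD, n = 3), without overlap, and both flanking junctions were called (edgeR adjusted p = 0.000672 at the acceptor and 0.00131 at the donor). PBX3, a homeobox transcription factor, lost reads of the 181032-base junction that skips a 242-base exon, with 32, 42 and 25 against 21, 23 and 7 (log2 change -1.09 ± 0.31, edgeR adjusted p = 0.0416). In the same gene a donor inside that exon, absent from the annotation, went from 2, 7 and 0 reads to 13, 28 and 11, a gain of 8.55 points ± 4.15 at the acceptor (edgeR adjusted p = 0.00356). LINC01278, a long noncoding RNA, had 4, 1 and 0 reads into a 173-base annotated exon of its 128341-base intron in wild type and 27, 21 and 8 in the mutant. That junction's share of its donor's reads rose by 42 points ± 18.1 (edgeR adjusted p = 0.0152). An unnamed locus on chromosome 8 gained a 44-base exon, with inclusion of 12.2% ± 7.31 in wild type and 37.0% ± 12.9 in the mutant (edgeR adjusted p = 0.035 at the acceptor). At the acceptor of a 345009-base junction joining TIMM23 and TIMM23B, which are near-identical copies and so uncertain, an unannotated short junction of TIMM23B went from 2, 1 and 0 reads to 5, 12 and 14 (edgeR adjusted p = 0.013). At the acceptor of the PVT1 long junction, a short unannotated junction had 1, 2 and 0 reads in wild type and 66, 90 and 13 in the mutant, a gain of 26.1 points ± 10.05 (edgeR adjusted p = 7.71e-08). The gained junctions of PBX3, LINC01278, TIMM23B and PVT1, and the upstream junction of the MYO1E exon, met the read minimum through the mutant columns. Their tests were shaped by that minimum.

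From one donor, reads also moved between a long intron and a nearer or farther acceptor. In MBD5, which carries a methyl-CpG-binding domain, the 124251-base annotated junction had 31, 40 and 18 reads in wild-type JVM3, HG3 and MEC1 and 11, 13 and 8 in the mutant. An unannotated acceptor used from the same donor, at chr2:148815033, had 1, 0 and 1 against 23, 76 and 42. The junction to that acceptor met the read minimum through the mutant columns, so the test at this donor was shaped by that minimum. The long junction's share of the donor went from 91.6% to 20.6%, a drop of 71 points ± 7.45 (edgeR adjusted p = 0.00226), in an annotated noncoding transcript of the gene. In MYO1D, another class I myosin, a 110172-base junction to an acceptor outside the annotation had 48, 7 and 104 reads in wild type and 15, 5 and 27 in the mutant. The annotated junction from that donor to a nearer acceptor rose from 8, 0 and 19 to 34, 4 and 63 reads. The long one's share went from 89.6% to 38.5% (edgeR adjusted p = 0.0314). Its read level was -1.82 ± 0.52 on the log2 scale (edgeR adjusted p = 0.000619), a call that missed without MEC1 (edgeR adjusted p = 0.0607) and in DESeq2 (adjusted p = 0.0841). ATXN1, an RNA-binding and chromatin-associated protein, used a nearer annotated acceptor more, with 0, 6 and 1 reads in wild type and 1, 40 and 39 in the mutant (a gain of 16.5 points ± 10.7, edgeR adjusted p = 0.00412). Its 157502-base junction from that donor had 24, 94 and 144 against 19, 76 and 141 and was not called. The ATXN1 junction to the nearer acceptor met the read minimum through the mutant columns, so its test was shaped by that minimum. Among long junctions with a second junction at the donor, 3 were used more and 2 less, 2.19% of 228, against 1.8% of all junctions tested by donor (1.33% more and 0.469% less).

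EBF1 and RSRC1 had long junctions to acceptors outside the annotation that were read mainly in mutant columns. EBF1 is a transcription factor that sets up the B-cell programme. The annotated 233286-base junction of its intron 6 had 271, 182 and 137 reads in wild-type JVM3, HG3 and MEC1 and 230, 101 and 130 in the mutant (log2 change -0.49 ± 0.17, edgeR adjusted p = 0.0363). From the same donor, an acceptor 101869 bases closer had 0, 4 and 0 reads in wild type and 23, 10 and 11 in the mutant. That junction took 0.717% of the donor's reads in wild type and 8.63% in the mutant, values that describe a junction with 44 of its 48 reads in mutant columns. RSRC1, an arginine- and serine-rich protein linked to splicing, had 0, 1 and 1 reads in wild type and 10, 7 and 9 in the mutant at an acceptor 5324 bases short of the annotated one. With 26 of its 28 reads in mutant columns, it met the read minimum through them, and these counts are a description. Gene counts were 87.7 ± 18.3 and 76.3 ± 17.0 CPM for EBF1 and 47.9 ± 6.84 and 41.5 ± 8.76 for RSRC1, neither called.

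Exons inside long introns were followed further, since each such exon splits the intron into shorter ones. An exon of 10 to 500 bases with at least 20 reads on both flanks was seen in 91 long introns, taking the deepest per intron. Its inclusion was higher by at least 5 points on average, with the same sign in every line, in 11 (12.1%) and lower in 9 (9.89%). Over the 10850 introns of any length with such an exon, those shares were 10.3% and 10.8%. Both directions were thus near their background. The MBNL1 exon of 120 bases rose from 27.5% ± 4.37 to 43.8% ± 7.95 without a call at either flank (edgeR adjusted p = 0.0562 and 0.204). CDKAL1, a tRNA-modifying enzyme, went the other way, from 86.5% ± 0.972 to 74.6% ± 3.02 for a 63-base exon, as did IMMP2L, a mitochondrial protease subunit, from 89.4% ± 8.37 to 77.3% ± 6.12. Neither was called.

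**Figure D4:**
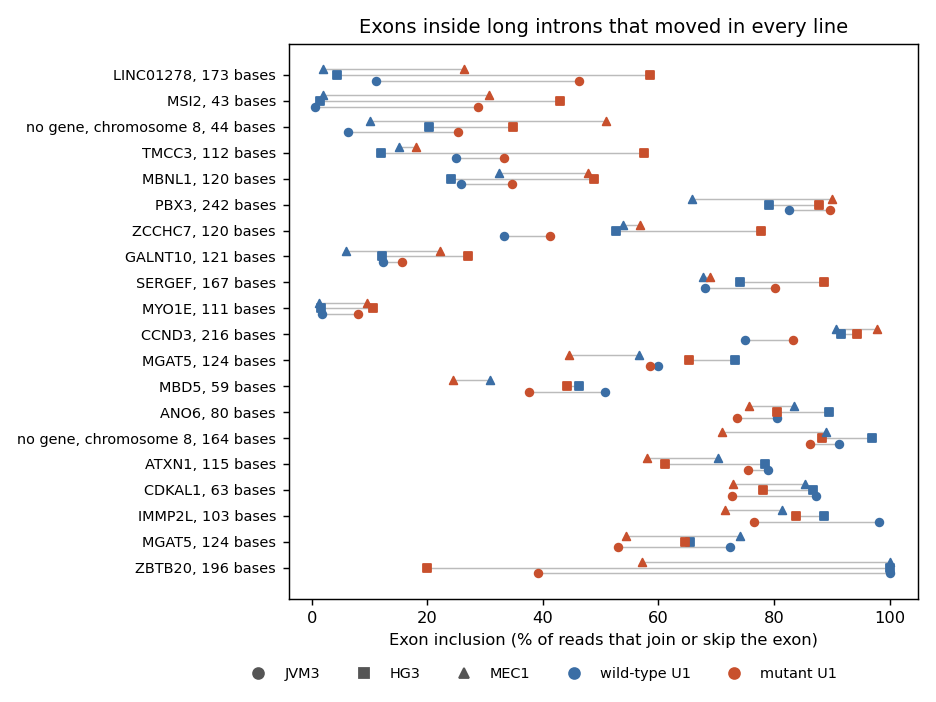
Inclusion of the deepest exon within each long intron (x axis, percent of reads that join or skip the exon) for the 20 introns in which it moved by at least 5 points on average with the same sign in every line, 1 point per line (shape) and U1 status (colour). LINC01278, MSI2 and MYO1E lie at 11.1% or less in wild type and higher in every mutant column, and the lowest rows, such as CDKAL1, fell.

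The long junctions of VTI1A, COG5 and TRAPPC9 were among the 26 that fell. VTI1A, a SNARE of the trans-Golgi network, had 82, 90 and 91 reads over its 146292-base annotated junction in wild-type JVM3, HG3 and MEC1 and 52, 25 and 44 in the mutant (log2 change -1.25 ± 0.27, edgeR adjusted p = 0.000649). A second donor 11 bases downstream, absent from the annotation, had 10, 7 and 14 against 13, 18 and 10. COG5, a subunit of the conserved oligomeric Golgi complex, went from 67, 81 and 83 to 50, 44 and 53 reads (-0.76 ± 0.07, edgeR adjusted p = 0.0184). TRAPPC9, of the TRAPP tethering complex, went from 49, 48 and 58 to 36, 27 and 34 (-0.79 ± 0.08, edgeR adjusted p = 0.0403). All 3 were lower in each line. These genes were set side by side after their values were seen.

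SERGEF, a guanine nucleotide exchange factor linked to secretion, had 28, 23 and 24 reads over its long junction in wild type and 9, 3 and 16 in the mutant (-1.60 ± 0.48, edgeR adjusted p = 0.0206). The call was lost without JVM3 (edgeR adjusted p = 0.106) and without HG3 (0.145). DOCK2 went from 632, 495 and 566 reads in JVM3, HG3 and MEC1 to 467, 326 and 547, a smaller difference in MEC1 than in the other lines (-0.47 ± 0.13, edgeR adjusted p = 0.0096). Leaving out JVM3 or HG3 ended that call (edgeR adjusted p = 0.136 and 0.0613). SLC12A2-DT, a divergent noncoding transcript beside a chloride cotransporter gene, had 10, 18 and 27 against 7, 2 and 9 (-1.71 ± 0.51, edgeR adjusted p = 0.0384), a call lost without HG3 (0.253) or MEC1 (0.177). NT5DC1, which carries a nucleotidase domain, went from 116, 593 and 94 to 87, 225 and 34 (-1.19 ± 0.29, edgeR adjusted p = 8.91e-05). A junction on chromosome 16, from ENSG00000284649 to ENSG00000284685, had 28, 8 and 15 against 11, 4 and 2, and its call was lost without JVM3 (edgeR adjusted p = 0.191) or MEC1 (0.197). The junctions of SLC12A2-DT and chromosome 16 met the read minimum through the wild-type columns, so their tests were shaped by that minimum.

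A called junction on chromosome 2 (88990376 to 89156965) had 50 reads in wild-type JVM3 and 0 in all other columns. A single column thus set its call, and DESeq2 gave an adjusted p of 0.9999. That junction matched no annotated intron. Of the higher ones, ENSG00000227486 on chromosome X, a noncoding gene, had 3, 46 and 6 reads against 18, 139 and 8 over its 106045-base intron. The next junction downstream on the same strand, spanning 190012 bases, had 4, 42 and 8 against 20, 141 and 16 (edgeR adjusted p = 0.00478 and 0.00121). Gene counts of ENSG00000227486 were 5.12 ± 5.71 and 6.21 ± 7.49 CPM and were not called. The unnamed chromosome 8 junction of 100919 bases, a flank of the 44-base exon above, had 1, 10 and 4 reads against 17, 26 and 27 (edgeR adjusted p = 0.00598). It met the read minimum through the mutant columns.

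Host gene RNA was compared separately, since the reads of a junction also depend on the RNA level of its gene. Of 232 tested host genes 13 fell and 1 rose, 6.03%, against 3.69% called among all 21270 genes (1.86% lower and 1.83% higher). The median log2 change was -0.10 over host genes and -0.01 over all. NT5DC1 counts were lower in every line, at 101 ± 103 and 54.2 ± 53.2 CPM (log2 change -0.88, edgeR adjusted p = 0.00663), with HG3 at 220 and 115. KCNQ5, a potassium channel subunit, went from 42.7 ± 7.83 to 26.2 ± 3.58 CPM (-0.68, edgeR adjusted p = 0.00652), AVEN, an apoptosis inhibitor, from 15.7 ± 3.44 to 9.73 ± 2.46 (-0.67, 0.0164) and SERGEF from 15.2 ± 0.997 to 10.3 ± 0.603 (-0.54, 0.0302). COG5, TRAPPC9, MYO1D, ARID5B, DOCK10, TBC1D1, CCNY, IQGAP2 and CSGALNACT1 made up the other lower genes, with log2 changes from -0.57 to -0.37. PVT1, a long noncoding RNA gene next to MYC, was the one higher, from 72.9 ± 36.5 to 114 ± 62.2 CPM (0.65, edgeR adjusted p = 0.0167). Its own long junction had 11, 6 and 14 reads in wild type and 7, 2 and 4 in the mutant and was not called. Leaving out 1 line left 4 or 5 host gene calls: 2 higher and 2 lower without JVM3 (1.72%, against 1.91% of all genes), and 1 higher and 4 lower without HG3 (2.16%, against 1.58%) or without MEC1 (2.16%, against 1.7%). The surplus of lower over higher host genes was thus not seen without JVM3.

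Of the 22 lower junctions whose host gene was tested, 7 lay in a gene that itself fell, and all 22 changed by a more negative log2 value than their gene. Their median was -0.76 for the junction and -0.33 for the gene, but they were chosen for a low junction value. Over the 357 long junctions with a tested host gene the median difference of junction minus gene was -0.03, and 192 lay below their gene.

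Lists of genes by role were set with earlier results known and are described by counts. Shares over all features for reading these counts are 1.83% higher and 1.86% lower of genes, and 3.1% higher and 3.38% lower of junctions. None of 25 genes of 5′ splice site recognition was called (median log2 change -0.07), nor any of 19 tested RNA-binding proteins of long introns (-0.05). Of 25 elongation and topoisomerase genes, ELL, an elongation factor (0.37, edgeR adjusted p = 0.04996), and SCAF4, which binds the polymerase tail (0.64, edgeR adjusted p = 0.0131), rose, and none fell. B-cell transcription factors supplied 6 host genes with 13 long junctions, of which 2 rose (EBF1 and ZBTB20) and 1 fell (EBF1). Kinases, phosphatases and GTPase regulators supplied 8 with 20, of which 1 fell (DOCK2). RNA-binding and chromatin genes supplied 10 with 22, of which 1 rose and 1 fell, both in MSI2. Common fragile site genes supplied 5 with 13, among them IMMP2L, AUTS2 and WWOX, and none was called.

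Some long junctions belonged to 1 line whatever the U1 status. MGMT, which repairs alkylated DNA, had 141 and 107 reads in wild-type and mutant MEC1 and 0 in the other columns. PDGFD (15 and 20), ZC4H2 (10 and 25) and PLEKHA7 (12 and 22) were likewise read in MEC1 alone. ARHGAP24, a GTPase-activating protein, had 24 and 12 reads in HG3 over a 144683-base junction and SRGAP3 had 11 and 11, with 0 elsewhere. Gene counts in wild-type JVM3, HG3 and MEC1 were 0.0968, 0.108 and 17.4 CPM for MGMT and 0.113, 0.666 and 7.1 for PDGFD. They were 0.5, 2.73 and 11.75 for ZC4H2 and 0.258, 1.55 and 26 for PLEKHA7. ARHGAP24 had 34.3, 19.4 and 21.5 CPM and SRGAP3 0.903, 7.84 and 1.89. Whether these junctions follow the RNA level of their gene was not tested. Unnamed junctions on chromosomes 2, 22 and 14 had 47 and 42 reads in JVM3 only, 72 and 56 in HG3 only and 41 and 35 in MEC1 only. None of these unnamed junctions matched an annotated intron, and whether their reads come from spliced introns was not tested. AUTS2 had 4 of its 5 long junctions at 80 to 411 reads and the fifth at 846, with at most 1 read in each JVM3 column.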

How the data were processed

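Libraries of 12 samples, 2 technical replicates for each of 6 groups, were sequenced by the submitters. STAR 2.5.4b, HTSeq 0.9.1 and the builds hg19 and GRCh37 are named in the submitters' processing notes. The deposited table of junctions holds raw read counts per junction, 1 column per line and U1 status, and the deposited gene tables hold raw counts per gene and library, in both cases not normalized by the authors. The step that joined technical replicates into junction columns was not stated by any label or header. No junction column belonged to other samples (0).

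Junctions with a strand and at least 20 summed reads entered the fits. Use at the acceptor was tested with edgeR 4.0.16 (diffSpliceDGE), read level and gene level with its quasi-likelihood test (TMM factors), always with the line as a block and Benjamini-Hochberg adjustment over all features, in R 4.3.3. A call needed adjusted p under 0.05, and for use also a mean change of 5 points with the same sign in every line. The value after ± beside a fitted log2 change in read level is the SE over lines of the log2 differences within lines (prior count of 2). It is not the standard error of the fitted change, and the prior count makes it smaller at junctions with few reads. diffSpliceDGE sets a junction against the read-weighted average of its acceptor, so a shift at a dominant junction is called mainly at its minor competitor. Limma 3.58.1 (diffSplice) and DESeq2 1.42.0 were alternatives. Gene counts of technical replicates were summed per group. Wilson intervals (95%), and the limit of 3 reads for a count of 0, cover counting error only, since reads without molecular identifiers are not independent molecules.

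Introns were matched by exact length and spacing to GENCODE 29, with no coordinates converted. Both sites of 360 long junctions matched, 2 did on the wrong chromosome used as a control, and 25 more were named by their own length. Members and gene lists were chosen with earlier results of these data known. Genes named are the members called in use with their competitors, the 6 highest and 6 lowest called in level, the 5 most read, the 5 longest, up to 5 of a single line, and those at the limits of the rule. The others were named after their values were seen. One fixed B-cell marker is not reported here. Same-numbered technical replicates deviated together with correlations of 0.0405 (JVM3), 0.117 (HG3) and 0.221 (MEC1), not above 0.1 in every line.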

Additional observations from a re-analysis of the deposited data

Results flagged for a closer look

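Long junctions with fewer than 20 reads, which the tests did not use, numbered 828. Of these, 4 were read with mutant U1 in all 3 lines and with wild-type U1 in none, and 0 showed the mirror pattern. The most read was in MSI2, downstream of the gene's intron 5, with 5, 5 and 3 reads in mutant JVM3, HG3 and MEC1. The second was in CAMKMT, a calmodulin-modifying enzyme, with 4, 2 and 1, and the others were unnamed junctions on chromosomes X and 12 with 5 and 4 reads in all. Over the 828, mutant columns held 1412 reads and wild-type columns 1263. These counts were picked by their pattern and carry no test.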

How the results depend on the processing

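Alternative runs were compared for the class-level results and for 24 results of single junctions, in use or read level. None of the 24, nor the share of junction reads, reversed the sign of its change in the runs made for it. Not every junction named above was followed in this way, and no single host gene was. Some shares of calls fell below those of all features, as given below. The share of junction reads was lower in every line throughout, at -0.0317 points for junctions of at least 50 kb, -0.00212 for at least 200 kb and -0.0141 to -0.0124 with 1 line left out. The 4 use calls became 8 of 223 with limma diffSplice, against 6.16% of all junctions. They became 17 of 1024 for introns of at least 50 kb and 0 of 23 for at least 200 kb, against 2.78% of all (edgeR). When any junction at the acceptor counts they became 11 of 223. Counted by acceptor that was 5.42%, close to the 5.36% over all acceptors. With a line left out they were 2 of 180 without JVM3, 1 of 178 without HG3 and 3 of 179 without MEC1. No share over all junctions was computed for the runs with a line left out, so these counts cannot be set against a background. The 34 level calls became 6 of 368 with DESeq2, against 1.98% of all junctions. For at least 50 kb they were 110 of 1795 and for at least 200 kb 4 of 49, against 6.49% of all. They were 12 of 376 without HG3, 21 of 370 without JVM3 and 22 of 366 without MEC1. The shares of all junctions in those fits were 3.97%, 5.95% and 5.5%. The share of long junctions called in level was thus below that of all with DESeq2, at 50 kb, without HG3 and without JVM3. The 14 host gene calls became 28 with DESeq2 (12.1%, against 7.73% of all genes), 36 without a filter on low counts (15.5% against 6.08%), 99 with 12 unsummed libraries (42.7% against 31.2%), and 4 to 5 with a line left out. The cause was not tested, except that unsummed technical replicates add samples and a left-out line removes them. The log-odds test, the any-junction count and the MHC exclusion were chosen after seeing the data.

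With a replicate block added to the line block over the 12 unsummed libraries, 78 host genes were called, 11 higher and 67 lower (33.6%, against 23.9% of all genes in that fit). Same-numbered libraries are not shown to be pairs, so the numbers serve only as names. The junction columns carry no replicate number, so no such fit was made there.

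Depth limits the class: its median junction had 128 reads over the 6 columns, and 200 of the 423 had no competitor with enough reads for a test of use.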
